A study of Mus musculus with 15 samples.

Results

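The guanylate-binding proteins (genes Gbp) and the immunity-related GTPases (genes Irgm1, Irgm2, Igtp and Iigp1) were followed in the mouse macrophage-like line RAW264.7 during exposure to the peptide LCCL. The set holds 9 of the 25639 gene symbols in the count table: Gbp2, Gbp3, Gbp5, Gbp7, Gbp8, Irgm1, Irgm2, Igtp and Iigp1. They were taken by family membership, and Gbp4 and Gbp9 were kept out because their exons overlap those of other family members. All 9 passed the filter on low counts and stood among the 12401 genes tested.

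Both families are large GTPases that macrophages make in quantity after exposure to interferons. Guanylate-binding proteins assemble on the membranes of bacteria and of the vacuoles that shelter intracellular parasites, help to open them, and promote the sensing of bacterial lipopolysaccharide by caspase-11. Among the immunity-related GTPases, the regulatory proteins Irgm1, Irgm2 and Irgm3 (gene Igtp) sit on the cell's own membranes and hold effectors such as Irga6 (gene Iigp1) in their inactive state until these load onto a vacuole.

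The study made 15 libraries in 5 groups of 3, all of wild-type RAW264.7 cells: 1 untreated group, and LCCL peptide at 1 µg or 10 µg, each held for 6 h or 24 h. By its title the study is about a candidate peptide drug, built on an LCCL core, and M1 (classically activated) macrophages. The labels give doses without a volume, name no vehicle control, do not say when untreated cells were harvested and carry batch label 1 throughout. The peptide and time in culture thus cannot be told apart in any comparison with untreated cells. Comparisons of 24 h with 6 h within a dose likewise mix length of exposure with time in culture. Nothing in the labels says that the 3 libraries of a group came from separate cultures, so every p-value reflects the scatter of these libraries alone, which may be technical. A single line limits the model to the cells it represents, and bulk RNA cannot separate fewer expressing cells from less RNA per cell.

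Library totals ran from 19085148 to 22434642 counts. Levels are given in CPM, a count divided by its library's TMM-scaled size, per library or as the mean ± SD (n = 3). Changes are log2 fold changes ± SE from edgeR's quasi-likelihood test, two-sided, with p-values adjusted by the Benjamini-Hochberg method over all 12401 genes. Rose and fell are used of genes with an adjusted p below 0.05, which are also called higher or lower. All 10 macrophage markers checked had counts, though Mertk had only 0 to 3 per library. Their summed level was 14930 to 15550 CPM in untreated libraries, 14840 to 15310 at 1 µg and 14960 to 15130 at 10 µg for 6 h, 13650 to 16160 at 1 µg for 24 h and 11290 to 12380 at 10 µg for 24 h. Lyz2 was the largest part of the sum, with a mean of 9936 CPM in untreated cells and 7573 CPM at 10 µg for 24 h. By gene, 5 of the 9 macrophage markers tested rose and 4 fell at 10 µg for 24 h against untreated cells (median log2 fold change 0.25). Summed markers of fibroblasts, epithelium, T cells and natural killer cells did not exceed 0.101, 0.0534, 0.335 and 0.0883 CPM in any library, and those of neutrophils and dendritic cells did not exceed 1.17 and 2.08 CPM. Of 4 B-cell markers 3 were at 0 in all libraries, and the sum of the list was 0.146 to 0.274 CPM in untreated libraries, 0.320 to 0.550 and 0.290 to 0.464 CPM at 6 h, and 0.663 to 0.821 and 0.555 to 0.728 CPM at 24 h (lower dose first). The part of these marker shifts in the results on the GTPases was not tested.

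In the GENCODE M21 annotation of build GRCm38, Gbp5, Gbp7, Gbp3 and Gbp2 lie in this order on the plus strand of chromosome 3, at 142493978 to 142522344, 142530342 to 142550149, 142560026 to 142573209 and 142620602 to 142638008. Gbp2b, a family member outside the set, lies between Gbp3 and Gbp2 at 142594847 to 142619179. Gbp8 lies alone among the members on the minus strand of chromosome 5, at 105014150 to 105139540. Igtp (58199556 to 58207591) and Irgm2 (58199618 to 58222782) overlap on the plus strand of chromosome 11, and Irgm1 lies on the minus strand of the same chromosome at 48861968 to 48871683. The submitters' processing notes name build GRCm39, so these coordinates place the genes but are not those of the count table.

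Interferon-inducible genes are known for short promoter motifs, and RefSeq promoter windows (build GRCm38.p6, 250 bases before to 50 bases after the gene's start) were in the table used for 7 members. Gbp8 and Iigp1 had none there. The core of the interferon-stimulated response element, searched on both strands as the letters GAAA, any 2 bases and GAAA again, was present in a window of 7 of the 7 members, against 3.44% (1131 of 32851) of all promoter windows of the same length. The gamma-activated site, searched as TTCNNNGAA, which is its own reverse complement, was present in 4 of the 7 (Gbp5, Gbp7, Irgm2 and Igtp), against 8.3% (2726) of all windows. Both shares count windows, whereas the 7 members are counted as genes and had 8 windows in all. A match describes letters in a window and is neither a bound site nor a cause. The windows shown are those of Gbp3, Irgm1 and Irgm2, the members that rose at 6 h and fell at 24 h, and of Igtp, whose window is a near copy of that of Irgm2. They are chr3:142559794-142560093 (plus strand), chr11:48871371-48871670 (minus strand), chr11:58214727-58215026 (plus strand) and chr11:58199306-58199605 (plus strand). Each is printed 5′ to 3′ along the gene's strand, with matches to the response element core, on either strand, in capitals:
Gbp3: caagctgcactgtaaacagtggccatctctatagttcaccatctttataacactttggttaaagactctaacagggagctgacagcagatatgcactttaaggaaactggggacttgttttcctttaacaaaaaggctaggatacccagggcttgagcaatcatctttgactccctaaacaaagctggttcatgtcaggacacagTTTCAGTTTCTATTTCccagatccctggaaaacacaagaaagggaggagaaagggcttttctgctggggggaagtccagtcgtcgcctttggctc
Irgm1: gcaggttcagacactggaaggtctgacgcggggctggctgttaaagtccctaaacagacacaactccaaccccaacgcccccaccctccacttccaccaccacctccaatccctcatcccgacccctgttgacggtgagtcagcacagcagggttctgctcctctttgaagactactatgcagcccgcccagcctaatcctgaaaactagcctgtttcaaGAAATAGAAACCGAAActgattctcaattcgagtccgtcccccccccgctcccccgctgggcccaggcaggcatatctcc
Irgm2: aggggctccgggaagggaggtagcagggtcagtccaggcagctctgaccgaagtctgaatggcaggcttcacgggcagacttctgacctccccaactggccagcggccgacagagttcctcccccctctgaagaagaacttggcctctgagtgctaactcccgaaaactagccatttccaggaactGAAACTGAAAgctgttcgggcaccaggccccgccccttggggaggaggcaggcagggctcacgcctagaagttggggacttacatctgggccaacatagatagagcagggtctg
Igtp: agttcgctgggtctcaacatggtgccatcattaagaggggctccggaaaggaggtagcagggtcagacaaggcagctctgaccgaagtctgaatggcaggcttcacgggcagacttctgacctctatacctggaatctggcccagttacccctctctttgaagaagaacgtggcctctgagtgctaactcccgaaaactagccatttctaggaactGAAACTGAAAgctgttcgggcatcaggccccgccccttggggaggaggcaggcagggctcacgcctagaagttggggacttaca

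In these windows the core began 34 bases before the start in Igtp and 64 bases before it in Irgm2, and Irgm1 (30 and 24 bases before) and Gbp3 (45 and 39 bases before) each held a pair of overlapping matches. The matches began 59 bases before the start in Gbp2, 53 in Gbp7 and 165 in Gbp5. The second window listed for Gbp3 held no match. The Igtp and Irgm2 windows were identical at 244 of their aligned bases (92.1%), with a longest identical run of 61 bases. This likeness is of promoter windows, and the transcripts were not compared. The exons of the 2 genes share 162 bases in GENCODE M21 (8.01% of the exon bases of Igtp and 4.39% of those of Irgm2). Reads from shared bases could be divided differently by another counting method, so the separate values of Igtp and Irgm2 carry that limit.

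**Figure D1:**
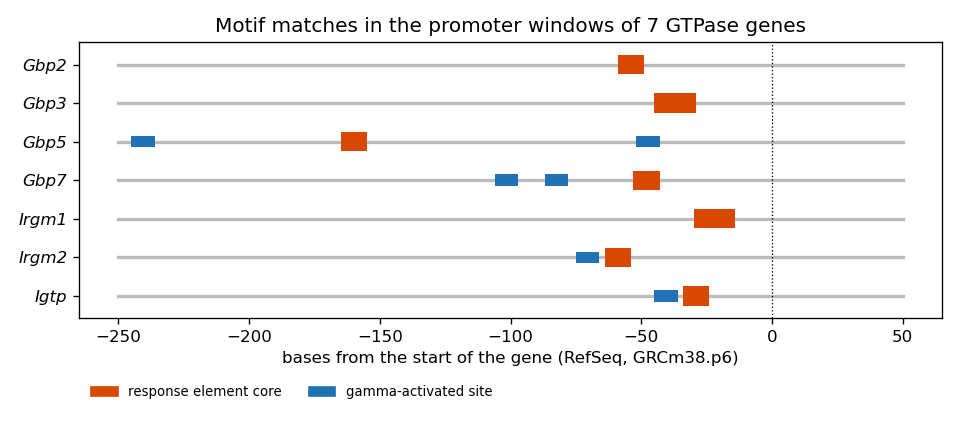
Each row is the RefSeq promoter window of 1 GTPase gene, with the horizontal axis in bases from the gene's start, orange boxes for matches to the interferon response element core and blue boxes for the gamma-activated site. All 7 genes hold an orange box, which begins within 64 bases of the start in 6 of them and 165 bases before it in Gbp5.

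In untreated cells the regulatory GTPases were the most abundant members. Divided by exon length, the mean level of Irgm1 was 23.5 CPM per kb, followed by Irgm2 at 13.9, Igtp at 4.81, Gbp7 at 1.51, Gbp3 at 1.27, Gbp2 at 0.939, Gbp8 at 0.348, Gbp5 at 0.179 and Iigp1 at 0.108 CPM per kb. Neighbours whose libraries overlapped in this order were Gbp7 with Gbp3, Gbp3 with Gbp2, and Gbp5 with Iigp1. The order was the same per kb of coding length. After 10 µg for 24 h Irgm1 (10.9 CPM per kb) and Irgm2 (7.74) still led, and Gbp8 came next at 5.74 CPM per kb, above Igtp at 1.5. The levels of Gbp5 and Iigp1 rest on few reads, with raw counts of 2 to 28 and 3 to 24 per library.

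The first question was whether 1 µg had, by 6 h, moved the GTPase genes away from untreated cells. None of the 9 members was called, where 0% of all tested genes were called. The log2 fold changes ran from -0.18 ± 0.36 for Gbp8 to 0.13 ± 0.45 for Iigp1, with a median of 0.04 over the members and 0.00 over all genes, and every adjusted p was 1 by edgeR. DESeq2 and limma-voom also called 0 members, and 0 members had an unadjusted p under 0.05 by edgeR, as 337 of all tested genes did. In 0 of the 9 members did the libraries of the groups stand apart, against 10.9% of all genes.

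At 10 µg for 6 h the regulatory GTPase genes Irgm1 and Irgm2 and the guanylate-binding protein gene Gbp3 rose, by 1.26-fold, 1.20-fold and 1.54-fold. These 3 of 9 members were called higher and 0 lower, beside 5.95% of all tested genes called in either direction, 4.09% higher and 1.86% lower. The median log2 fold change of the members was 0.27, against 0.00 over all genes.

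Irgm1, whose protein is needed for macrophage control of several intracellular bacteria, was at 123, 139 and 147 CPM in the untreated libraries and at 177, 167 and 170 CPM at 10 µg for 6 h. All 3 treated libraries lay above all 3 untreated ones, with a log2 fold change of 0.33 ± 0.06 (edgeR adjusted p = 0.000779). Irgm2, a second regulator kept on the cell's own membranes, was at 46.7, 53.5 and 53.3 CPM untreated and at 63.3, 59.3 and 62.1 CPM, again without overlap (0.27 ± 0.07, edgeR adjusted p = 0.0145). This call was lost without untreated replicate 1 (adjusted p = 0.125), 10 µg 6 h replicate 1 (0.075) or 10 µg 6 h replicate 3 (0.0579), in a range of 0.00136 to 0.125 over the alternatives.

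Gbp3, a guanylate-binding protein of the chromosome 3 cluster, was at 4.88, 3.42 and 4.12 CPM untreated and at 7.09, 6.08 and 5.94 CPM at 10 µg for 6 h. The groups did not overlap, and the log2 fold change was 0.62 ± 0.19 (edgeR adjusted p = 0.0478). This call stood close to the threshold: it was lost with DESeq2 (adjusted p = 0.0525), with DESeq2's size factors in edgeR (0.0524), with a replicate block (0.0532) and without each single library of either group (0.0545 to 0.218), and the lowest adjusted p of any alternative was 0.00607.

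The other members did not pass at this dose and time. Igtp, the gene of Irgm3, went from 9.73 ± 1.11 to 11.9 ± 0.343 CPM with libraries that did not overlap, and its log2 fold change was 0.29 ± 0.13 (edgeR adjusted p = 0.211). Gbp2, whose protein coats bacteria and vacuoles, gave 0.56 ± 0.23 (edgeR adjusted p = 0.182), and its untreated libraries were spread widely at 1.66, 3.24 and 2.19 CPM against 3.66, 3.78 and 3.04 CPM. Gbp7 gave 0.24 ± 0.13, Iigp1 0.19 ± 0.44, Gbp5 -0.01 ± 0.32 and Gbp8 -0.41 ± 0.36, with edgeR adjusted p = 0.338, 0.878, 0.996 and 0.62. In 4 of the 9 members the libraries of the groups did not overlap, against 27.3% of all genes.

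**Figure D2:**
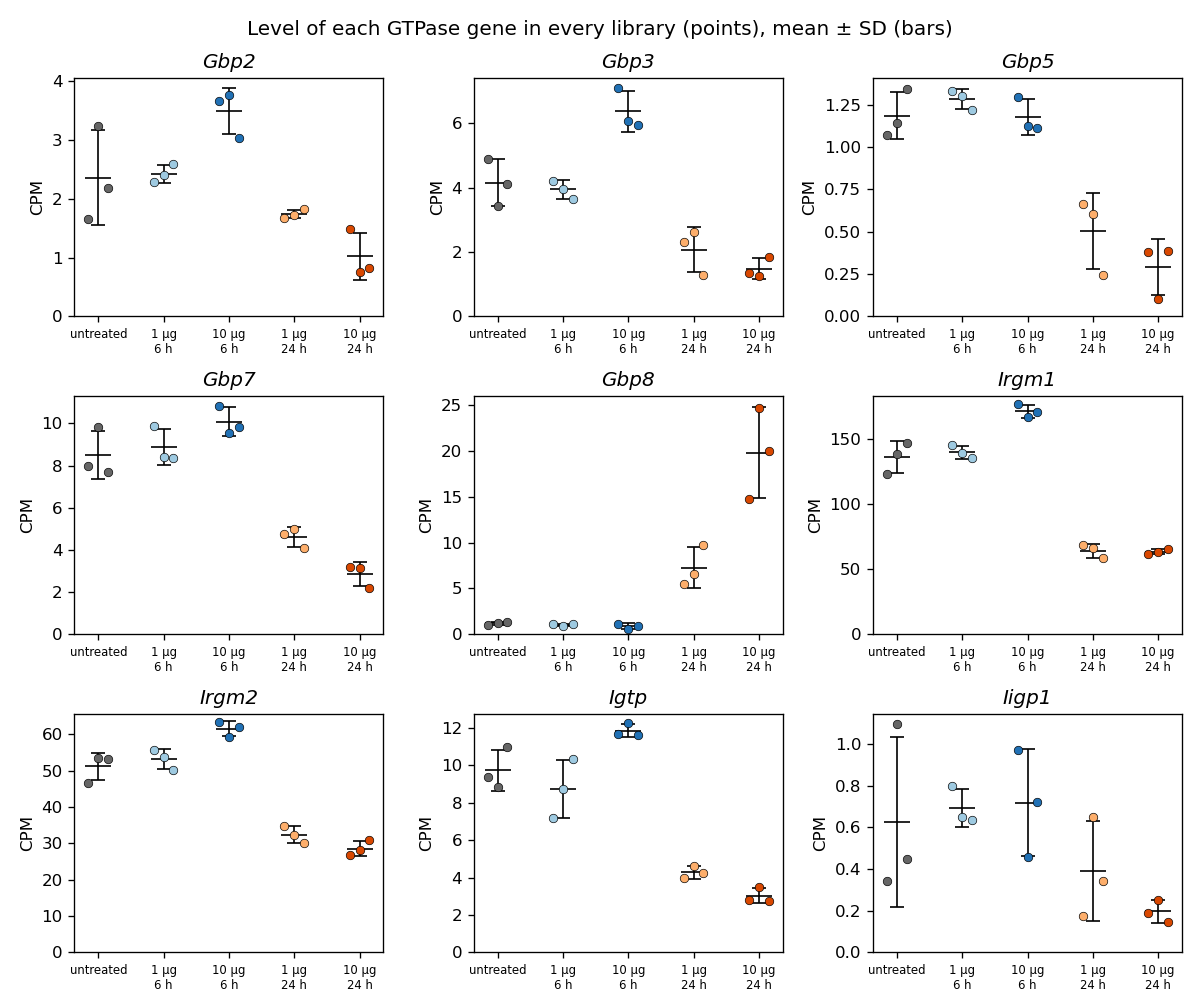
Each panel shows 1 GTPase gene, with CPM on a linear vertical axis that starts at 0, 1 point per library, and the mean ± SD of the 3 libraries of each group as bars. Irgm1 reaches 177 CPM in a library at 10 µg for 6 h and lies between 58.4 and 68.6 CPM in the 6 libraries at 24 h, while Gbp8 runs from 0.561 CPM at 6 h to 24.6 CPM at 24 h.

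After 24 h most of the GTPase genes were below untreated cells at both doses, and Gbp8 alone among the members was above. At 1 µg, 6 of 9 members fell and 1 rose, beside 61.8% of all tested genes called, 31% lower and 30.8% higher. At 10 µg, 8 of 9 fell and 1 rose, beside 70.3% of all tested genes called, 34.9% lower and 35.4% higher. Since most tested genes were called, the shares by direction are the ones to read beside these counts. The median log2 fold change was -0.87 over the members at 1 µg and -1.47 at 10 µg, against 0.01 over all genes in each. Libraries did not overlap for 7 and 9 of the 9 members, against 64.7% and 72.2% of all genes. These comparisons, like those at 6 h, share the untreated libraries, so they are set side by side without a test of their likeness.

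Irgm1 was at 68.6, 66.2 and 58.4 CPM at 1 µg for 24 h and at 61.7, 63.1 and 65.7 CPM at 10 µg for 24 h. All 6 libraries lay below the lowest untreated library, and those of the doses overlapped each other. The log2 fold change was -1.08 ± 0.06 at 1 µg (edgeR adjusted p = 2e-13) and -1.10 ± 0.06 at 10 µg (edgeR adjusted p = 3.49e-14).

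Irgm2 was at 34.7, 32.4 and 30.1 CPM at 1 µg for 24 h and at 26.7, 28.1 and 30.9 CPM at 10 µg. Every one of these libraries lay below the untreated ones, and Irgm2 had the smallest change of the 7 members that were called at 1 µg (-0.66 ± 0.07, edgeR adjusted p = 9.8e-09) and of the 9 called at 10 µg (-0.84 ± 0.07, edgeR adjusted p = 6.94e-11). Igtp, which shares exon bases with Irgm2, changed more: it was at 9.37, 8.85 and 11 CPM untreated, at 3.98, 4.62 and 4.24 CPM at 1 µg, and at 2.83, 3.48 and 2.77 CPM at 10 µg. The log2 fold changes of Igtp were -1.18 ± 0.14 (edgeR adjusted p = 5.22e-08) and -1.68 ± 0.15 (edgeR adjusted p = 1.32e-10), with 3 groups that did not overlap.

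Among the guanylate-binding protein genes, Gbp7, whose protein is linked to the oxidative defence of macrophages, was at 7.95, 9.81 and 7.70 CPM untreated, at 4.77, 5.01 and 4.09 CPM at 1 µg for 24 h and at 3.21, 3.13 and 2.19 CPM at 10 µg for 24 h. The 3 groups stepped down without overlap, with log2 fold changes against untreated cells of -0.87 ± 0.14 (edgeR adjusted p = 8e-06) and -1.58 ± 0.15 (edgeR adjusted p = 1.01e-09). GENCODE M21 has a same-strand pseudogene, Gm43802, over 637 bases (11.3%) of the Gbp7 exons, and its name was not in the count table.

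Gbp3 stood at 2.30, 2.63 and 1.28 CPM at 1 µg for 24 h and at 1.34, 1.26 and 1.84 CPM at 10 µg. Both groups lay below the untreated libraries and overlapped each other, with log2 fold changes of -0.98 ± 0.21 and -1.47 ± 0.22 (edgeR adjusted p = 0.000253 and 2.08e-06). Gbp5, whose protein promotes inflammasome assembly, went from 1.07, 1.14 and 1.34 CPM untreated to 0.663, 0.605 and 0.246 CPM at 1 µg and 0.383, 0.101 and 0.389 CPM at 10 µg. The fall of Gbp5 at 10 µg was the deepest of the members on the log2 scale (-1.99 ± 0.40, edgeR adjusted p = 8.53e-05) and the 80th lowest of the 12401 genes, on 2 to 8 reads per library. At 1 µg it was -1.20 ± 0.35 (edgeR adjusted p = 0.0049).

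Gbp2 and the effector gene Iigp1 passed only at the higher dose. Gbp2 had 1.68, 1.73 and 1.82 CPM at 1 µg for 24 h, where the log2 fold change was -0.44 ± 0.25 (edgeR adjusted p = 0.123), and 1.49, 0.756 and 0.826 CPM at 10 µg, where it was -1.20 ± 0.27 (edgeR adjusted p = 0.000328). The 1 µg libraries overlapped the untreated ones, of which replicate 1 was the lowest, and without that library the difference passed (-0.64, edgeR adjusted p = 0.035, with 0.035 to 0.673 over the alternatives). Iigp1 was at 0.342, 1.09 and 0.447 CPM untreated, at 0.177, 0.648 and 0.345 CPM at 1 µg (-0.69 ± 0.48, edgeR adjusted p = 0.218) and at 0.192, 0.252 and 0.146 CPM at 10 µg (-1.67 ± 0.56, edgeR adjusted p = 0.00981). The 10 µg value rests on untreated replicate 2, without which it was -0.99 (edgeR adjusted p = 0.163, with 0.00427 to 0.163 over the alternatives).

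**Figure D3:**
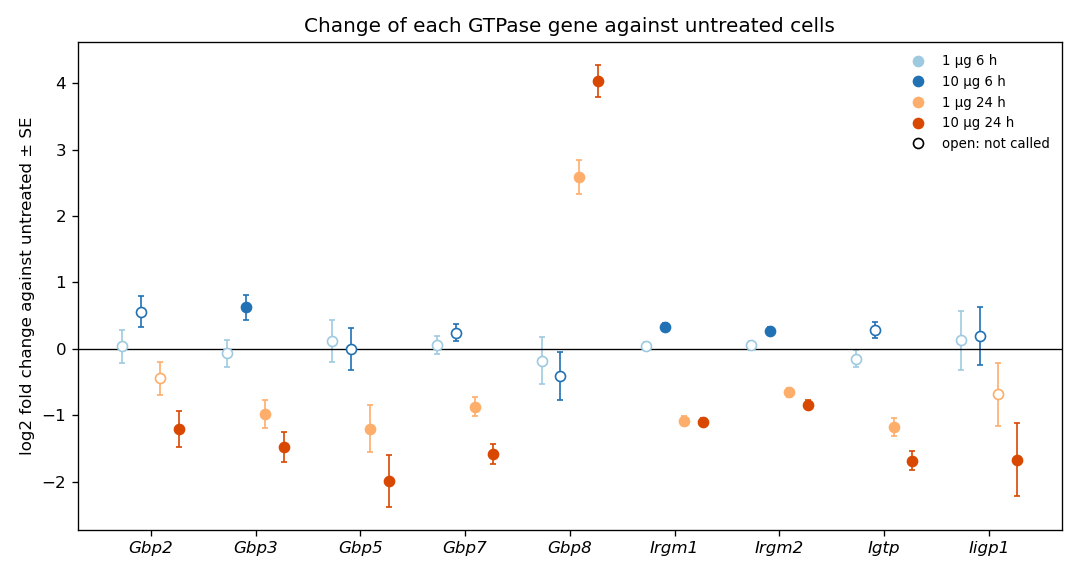
Points give the log2 fold change of each GTPase gene in the 4 treated groups against untreated cells, bars the SE, and open points the changes that were not called. At 24 h 8 of the genes lie below 0 at both doses and Gbp8 lies at 2.59 and 4.04.

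Gbp8, a guanylate-binding protein gene of the chromosome 5 cluster, ran opposite to the other 8 members at 24 h. It was at 1.02, 1.23 and 1.34 CPM in untreated libraries, at 5.48, 6.61 and 9.75 CPM at 1 µg for 24 h and at 14.8, 24.6 and 20 CPM at 10 µg for 24 h. The groups stepped up without overlap: the log2 fold change was 2.59 ± 0.26 (6.02-fold, edgeR adjusted p = 9.02e-08) at 1 µg and 4.04 ± 0.25 (16.4-fold, edgeR adjusted p = 3.11e-11) at 10 µg. These were the 67th and 41st highest of the 12401 genes. At 6 h Gbp8 lay between 0.561 and 1.16 CPM.

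The Gbp8 values carry a limit from the gene next to it. Gbp9, a family member outside the set, had 36 to 54 counts in the untreated libraries, 44 to 49 at 1 µg for 6 h and 48 to 61 at 10 µg for 6 h, and 0 in each of the 6 libraries at 24 h. The counted level of Gbp9 was set against a floor of 3 counts over the group. By this floor it was at least 48.3-fold below untreated cells at 1 µg for 24 h and at least 44.8-fold below at 10 µg. Whether this reflects less RNA or another assignment of reads was not tested. In GENCODE M21, 1 of the 4 transcripts of Gbp8 shares 60 exon bases with Gbp9, which is 1.74% of the exon bases of Gbp8, and 61 with Gbp4, which had 0 counts in all 15 libraries. Over the whole table, Gbp9 and Exosc6 were the only 2 genes with 0 counts in all 24 h libraries and at least 20 in every other library, and 0 genes showed the reverse. Exosc6 had 579 to 651 counts per library in untreated cells.

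When the counts of Gbp8 and Gbp9 were added into 1 row, an alternative chosen after seeing the data, the rise was smaller and still called: 1.09 ± 0.22 at 1 µg for 24 h (edgeR adjusted p = 0.000302) and 2.54 ± 0.21 at 10 µg for 24 h (edgeR adjusted p = 3.06e-09). At 6 h the summed row gave 0.03 and 0.10 at the lower and the higher dose, and was not called. The untreated sums were 57, 81 and 74 counts, against 124, 153 and 198 at 1 µg for 24 h and 308, 488 and 411 at 10 µg for 24 h, so the groups stayed apart in the sum. Whether the reads were assigned in the same way in all libraries was not tested, for these gene models or for those of the other members. The 24 h values of Igtp and Irgm2, whose exons share bases, carry this limit too.

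**Figure D4:**
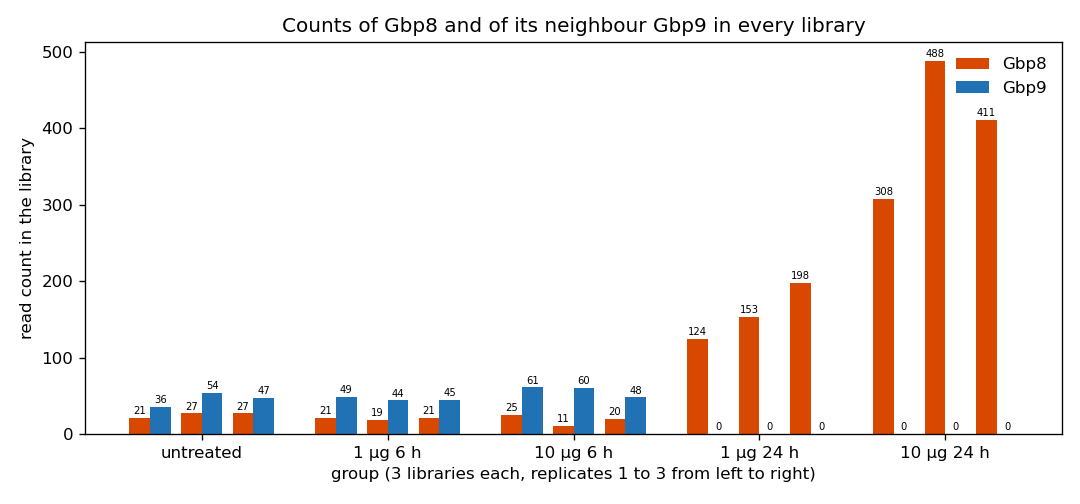
Bars give the raw read counts of Gbp8 and Gbp9 in each of the 15 libraries, on a linear axis from 0. Gbp9 has 36 to 61 counts in the untreated and 6 h libraries and 0 in the 24 h libraries, where Gbp8 has 124 to 488.

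Between the doses, treated groups were compared with each other at the same time, so the untreated cells are not in the fold change, though they are among the 15 libraries of the fit that gives each p. At 6 h, 10 µg against 1 µg called 1 member, Irgm1, higher and 0 lower, beside 2.35% of all tested genes called, 1.85% higher and 0.492% lower. Irgm1 was at 145, 139 and 135 CPM at 1 µg and at 177, 167 and 170 CPM at 10 µg, with no overlap (0.29 ± 0.06, edgeR adjusted p = 0.00579). That call was lost without 1 µg 6 h replicate 3 (adjusted p = 0.0539, with 2.2e-06 to 0.0539 over the alternatives). Gbp3 gave 0.69 ± 0.19, Igtp 0.44 ± 0.13, Irgm2 0.21 ± 0.07 and Gbp2 0.52 ± 0.23, with edgeR adjusted p = 0.0529, 0.0707, 0.103 and 0.329. Each of these 4 had libraries at 10 µg above all those at 1 µg, and with Irgm1 they made 5 of 9 members, against 24.1% of all genes. Gbp3 passed with DESeq2 (adjusted p = 0.05, rounded), with limma-voom (0.0462) and without a filter on low counts (0.0196). In a fit of these 2 groups alone Gbp3 (0.00183), Irgm2 (0.00618) and Igtp (0.0149) passed, and Igtp also passed without 1 µg 6 h replicate 3 (0.04).

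At 24 h, 10 µg against 1 µg called 4 members lower and Gbp8 higher, beside 35.3% of all tested genes called, 19.3% lower and 16% higher. Gbp7 fell by 0.71 ± 0.16 on the log2 scale (edgeR adjusted p = 0.00113), Gbp2 by 0.76 ± 0.28 (0.0355), Igtp by 0.50 ± 0.16 (0.0144) and Irgm2 by 0.18 ± 0.07 (0.049). The libraries of the doses did not overlap for Gbp7, Gbp2 and Igtp, and did for Irgm2. Gbp8 rose by 1.45 ± 0.19 (2.73-fold, edgeR adjusted p = 9.29e-06). The sum with Gbp9 has the same counts here, since Gbp9 is at 0 in both groups. It therefore cannot show whether reads of Gbp9 were counted under Gbp8 in these libraries. Irgm1 differed by -0.02 ± 0.06 (edgeR adjusted p = 0.836), and Gbp3, Gbp5 and Iigp1 gave -0.49 ± 0.24, -0.79 ± 0.45 and -0.98 ± 0.60, with edgeR adjusted p = 0.119, 0.181 and 0.219.

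Some of these dose calls rest on single libraries or on the groups fitted, and over the alternatives the adjusted p ran from 0.00513 to 0.154 for Gbp2, 0.0101 to 0.0646 for Igtp and 0.0198 to 0.2 for Irgm2. The call of Gbp2 was lost without 10 µg 24 h replicate 2 or 3 (adjusted p = 0.154 and 0.137) or 1 µg 24 h replicate 2 or 3 (0.0683 and 0.068). That of Igtp was lost without 1 µg 24 h replicate 2 (0.0632) or 10 µg 24 h replicate 3 (0.0646), and that of Irgm2 without 1 µg 24 h replicate 1 (0.2) or 2 (0.088), or 10 µg 24 h replicate 1 (0.17) or 2 (0.111). A fit of only these 2 groups lost all 3 calls (adjusted p = 0.0809 for Gbp2, 0.0601 for Igtp and 0.136 for Irgm2) and left Gbp7 and Gbp8 called. Irgm2 also missed the threshold with DESeq2 (0.0568), limma-voom (0.0676) and a replicate block (0.0623). Gbp3 passed without 1 µg 24 h replicate 3 (-0.73, adjusted p = 0.0123). The calls of Gbp7 and Gbp8 were kept in every alternative run.

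Within a dose, 24 h was compared with 6 h, again with the untreated cells in the fit but not in the fold change. At 1 µg, 6 members fell and Gbp8 rose, beside 60.7% of all tested genes called, 30.5% lower and 30.3% higher. The falls ran from -0.71 ± 0.07 for Irgm2 to -1.32 ± 0.35 for Gbp5. Gbp2 (-0.48 ± 0.25, edgeR adjusted p = 0.0992) and Iigp1 (-0.81 ± 0.48, edgeR adjusted p = 0.145) did not pass, and Iigp1 passed without 1 µg 24 h replicate 2 (-1.42, adjusted p = 0.0368). At 10 µg, 8 members fell and Gbp8 rose, beside 69.2% of all tested genes called, 35.2% lower and 34% higher. Here the falls ran from -1.11 ± 0.07 for Irgm2 to -2.10 ± 0.22 for Gbp3, and the median over the members was -1.82 against 0.01 over all genes. Gbp8 rose by 2.77 ± 0.27 at 1 µg and by 4.44 ± 0.26 (21.7-fold) at 10 µg, and the summed row of Gbp8 and Gbp9 by 1.07 and 2.44. Libraries of the times did not overlap for 8 of 9 members at 1 µg and 9 of 9 at 10 µg, against 65.5% and 72.1% of all genes.

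The interaction of dose and time asked whether the difference between 10 µg and 1 µg was the same at 24 h as at 6 h. It was called for 7 of 9 members, 6 lower at 24 h and Gbp8 higher, beside 18.6% of all tested genes, 11% lower and 7.58% higher. Gbp2 had the largest negative value (-1.28 ± 0.36, edgeR adjusted p = 0.0139), and its call was lost without 10 µg 24 h replicate 2 (adjusted p = 0.0502, with 0.00231 to 0.0502 over the alternatives). Gbp3 gave -1.19 ± 0.31, Igtp -0.94 ± 0.20, Gbp7 -0.89 ± 0.21, Irgm2 -0.40 ± 0.10 and Irgm1 -0.31 ± 0.09, with edgeR adjusted p = 0.00745, 0.00179, 0.00357, 0.00542 and 0.012. For these 6 genes the fitted difference between the doses was above 0 at 6 h and below 0 at 24 h, where that of Irgm1 was -0.02 ± 0.06 and turned to 0.03 without 1 µg 24 h replicate 1. Single differences passed only as given above. Gbp8 gave 1.67 ± 0.43 (edgeR adjusted p = 0.0097) and, summed with Gbp9, 1.37 ± 0.31 (edgeR adjusted p = 0.00406). Gbp5 (-0.67 ± 0.55) and Iigp1 (-1.04 ± 0.74) did not pass, with edgeR adjusted p = 0.454 and 0.376.

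**Figure D5:**
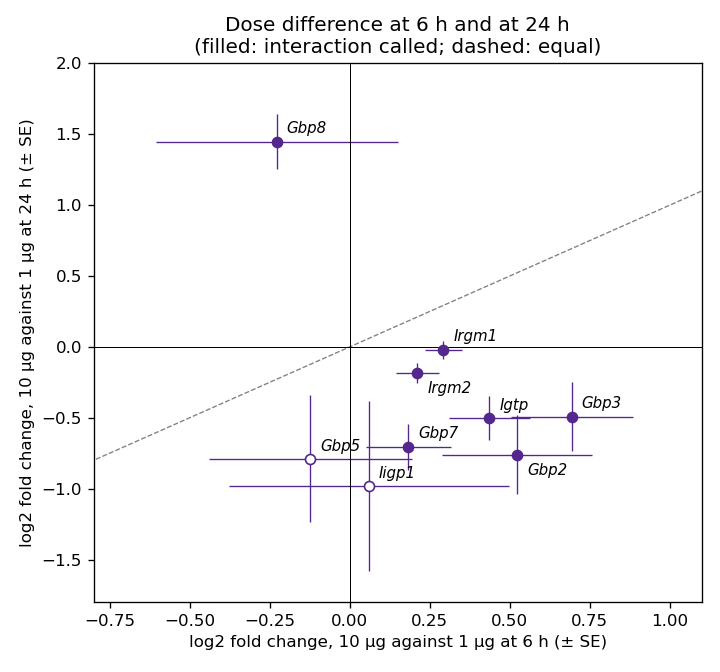
Each point is 1 GTPase gene, with the log2 fold change of 10 µg against 1 µg at 6 h on the horizontal axis and at 24 h on the vertical axis, bars for the SE, and filled points where the interaction was called. The 6 filled points of Gbp2, Gbp3, Gbp7, Irgm1, Irgm2 and Igtp lie right of 0 and below 0, and Gbp8 lies left of 0 and above 0.

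Counts for the gene lists that follow are to be read beside the shares of all tested genes called against untreated cells: 5.95% at 10 µg for 6 h (4.09% higher, 1.86% lower), 61.8% at 1 µg for 24 h (30.8% higher, 31% lower) and 70.3% at 10 µg for 24 h (35.4% higher, 34.9% lower). Among the rest of the GTPase families genes were called in both directions. Of 25 further GTPases and relatives listed, 21 were in the table and 12 were tested. At 10 µg for 6 h 3 rose and 1 fell, with a median log2 fold change of 0.23. At 24 h 4 rose and 4 fell at 1 µg (median -0.13), and 3 rose and 5 fell at 10 µg (median -0.06), with the same medians when Gbp9 was set to its bound. The falls at both doses include Gbp9, which had no counts at 24 h. Mx2, a dynamin-like antiviral GTPase, was at 16.7 to 17.0 CPM untreated and at 27.8 to 28.2 CPM at 10 µg for 6 h (0.73 ± 0.09, edgeR adjusted p = 9.45e-06), and then at 4.19 to 5.54 CPM at 10 µg for 24 h (-1.73 ± 0.11, edgeR adjusted p = 3.29e-13). These 3 groups of Mx2 did not overlap. Irgq, a relative without the classical GTPase residues, gave 0.82 ± 0.08 at 10 µg for 24 h, and Gm12185 went from -0.33 ± 0.07 at 10 µg for 6 h to 0.51 ± 0.06 at 10 µg for 24 h (edgeR adjusted p = 9.8e-10, 0.00197 and 8.92e-08). Rnf213, a very large ubiquitin ligase with ATPase domains, gave 0.25 ± 0.06 and Gvin2 0.20 ± 0.06 at 10 µg for 6 h (edgeR adjusted p = 0.0131 and 0.0365).

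Interferon signalling drives transcription of both families. Of 22 listed, 20 were tested, and 2 rose and 2 fell at 10 µg for 6 h, 4 rose and 8 fell at 1 µg for 24 h, and 5 rose and 6 fell at 10 µg for 24 h. The medians were 0.04, -0.05 and -0.01, and at 24 h the list was called no more often than the 61.8% and 70.3% of all tested genes. Early at 10 µg, Usp18, a brake on the type I receptor, rose by 0.51 ± 0.06 and the transcription factor gene Stat2 by 0.31 ± 0.05, and the receptor genes Ifngr1 and Ifnar2 gave -0.24 ± 0.06 and -0.22 ± 0.06 (edgeR adjusted p = 6.02e-06, 0.000158, 0.0244 and 0.0353). At 10 µg for 24 h Irf8 gave 0.73 ± 0.06, Irf7 -0.57 ± 0.06 and the kinase gene Tyk2 0.47 ± 0.05 (edgeR adjusted p = 3.98e-11, 2.43e-08 and 2.54e-08). Ifng, the gene of interferon-gamma itself, had 0 counts in all 15 libraries, which allows up to 0.13 to 0.16 CPM in a library.

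The ubiquitin-like conjugation system, which guides the GTPases to vacuoles, had all 10 listed genes tested. At 10 µg for 6 h edgeR, DESeq2 and limma-voom each called 0 of them, and 1 had an unadjusted p under 0.05 by edgeR. At 24 h 3 rose and 3 fell at 1 µg, and 7 rose and 1 fell at 10 µg, with a median of 0.21, beside 61.8% and 70.3% of all tested genes called. Map1lc3a (1.56 ± 0.17), Atg12 (0.76 ± 0.05), Map1lc3b (0.75 ± 0.07) and the activating enzyme gene Atg7 (0.40 ± 0.07) rose at 10 µg for 24 h, with edgeR adjusted p = 5.59e-09, 3.6e-12, 4.62e-10 and 1.78e-05. Of 8 ubiquitin adaptors of pathogen vacuoles 6 were tested, and 2 rose and 2 fell at that dose and time: the receptor genes Optn (1.84 ± 0.24) and Sqstm1 (1.16 ± 0.07) were higher, and the ligase genes Trim21 (-0.79 ± 0.10) and Trim25 (-0.29 ± 0.05) lower, with edgeR adjusted p = 1.39e-07, 8.79e-14, 9.45e-08 and 2.76e-06.

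Of 9 inflammasome genes that act after guanylate-binding proteins 7 were tested. Pycard and Il1b had too few counts for a test, with at most 12 and 10 in any library. At 10 µg for 6 h 3 rose and 0 fell, and at 10 µg for 24 h 5 rose and 1 fell, beside 5.95% and 70.3% of all tested genes called. Casp4, the mouse gene of caspase-11, was called at both times (0.51 ± 0.09 and 1.82 ± 0.09, edgeR adjusted p = 0.00139 and 1.92e-14). Nlrp3 gave 0.28 ± 0.06 and then -0.92 ± 0.06, the DNA sensor gene Aim2 0.48 ± 0.05 and Casp1 0.23 ± 0.07 at 10 µg for 24 h (edgeR adjusted p = 0.00659, 3.64e-12, 1.33e-08 and 0.00896). The 6 genes listed for prenylation cover the addition and the later processing of the lipid anchor that Gbp2 and Gbp5 carry. They had 0 calls at 10 µg for 6 h by edgeR, DESeq2 and limma-voom, and 0 with an unadjusted p under 0.05. At 10 µg for 24 h 4 fell and 0 rose, beside 34.9% and 35.4% of all tested genes. The values were Fntb -0.47 ± 0.11, Icmt -0.44 ± 0.05, Zmpste24 -0.44 ± 0.05 and Rce1 -0.30 ± 0.09 (edgeR adjusted p = 6e-04, 2.76e-08, 1.11e-08 and 0.00335).

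Genes with the most similar pattern were found by the root mean square difference between their 4 log2 fold changes against untreated cells and the median of the 9 members, over 9852 candidates with a mean of at least 5 CPM. The 6 nearest were Zbp1 (0.0923), Syt2 (0.0934), Spef1l (0.107), Cgas (0.12), Ppm1l (0.122) and Fos (0.128). Zbp1, a sensor of Z-form nucleic acids, gave 0.41 at 10 µg for 6 h, -0.98 at 1 µg for 24 h and -1.45 at 10 µg for 24 h, and Cgas, the cytosolic DNA sensor, gave 0.10, -0.75 and -1.37. In the same order Syt2 gave 0.32, -1.01 and -1.36, and Spef1l 0.10, -0.78 and -1.37. Ppm1l gave 0.05, -0.92 and -1.44, and Fos 0.21, -0.83 and -1.69. Among the members themselves the same difference was smallest for Gbp7 at 0.0549 and largest for Gbp8 at 3.27.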

How the data were processed

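Total RNA of RAW264.7 cells was made into stranded mRNA libraries, per the labels' protocols. The authors deposited raw whole-number counts per gene symbol, 1 column per library; the build is GRCm39 per the submitters' processing notes. For the aligner, counting tool, annotation and strand setting, nothing is given in the sources used here. Of the columns, 0 were unmatched.

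Counts were fitted in R 4.3.3 with edgeR 4.0.16: filterByExpr at its defaults left 12401 genes with 99.97% of counts, TMM scaling, glmQLFit in robust form over all 15 libraries (10 residual degrees of freedom, biological coefficient of variation 5.68%) and two-sided glmQLFTest. The SE was the log2 fold change over the square root of F, with a prior count of 0.125. The test was first run on simulated data. For a gene at 0 the limit was 3 counts (0.13 to 0.16 CPM in a library), which covers counting error only. The 9 comparisons were each treated group with untreated cells, dose within time, time within dose and their interaction. Alternatives were DESeq2 1.42.0, limma-voom (limma 3.58.1), other size factors, no filter, only the groups compared, a replicate block and leaving out each library. Exon overlaps and lengths came from GENCODE M21.

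The members and lists were chosen with earlier results of these data known. All 9 members are named in every comparison; from each of the 6 other gene lists up to 4 genes with the smallest p in a comparison are named, and the 6 genes nearest to the members' median pattern among those with at least 5 CPM without predicted-gene (Gm) or Rik symbols. A protein search was not run. 1 result of the interferon signalling list is not reported here.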

Additional observations from a re-analysis of the deposited data

Results flagged for a closer look

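The effect of dose differed between the times for 7 of the 9 GTPase genes by a test of the difference itself, the interaction term in edgeR's fit, beside 18.6% of all tested genes (11% lower, 7.58% higher). The difference between 10 µg and 1 µg, 24 h minus 6 h on the log2 scale, was -1.28 for Gbp2, -1.19 for Gbp3, -0.89 for Gbp7, -0.94 for Igtp, -0.40 for Irgm2 and -0.31 for Irgm1, and 1.67 for Gbp8. For Gbp8, the gene model next to it, Gbp9, had 0 counts in all 24 h libraries, and the summed row gave 1.37.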

How the results depend on the processing

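Over 1030 recomputed values of single members under the alternatives, 989 kept their side of the threshold, of which 23 were uncalled values that took the other sign, 31 lost the call, 10 gained one, and 0 called values changed sign. The number of members called against untreated cells at 10 µg for 6 h was 3, and ranged from 1 to 3 over the alternatives. It was 1 without untreated replicate 1, 10 µg 6 h replicate 1 or 10 µg 6 h replicate 3. Gbp3 lost its call without each single library of either group. For 10 µg against 1 µg at 6 h it was 1, and it was 2 with no filter, with DESeq2 and with limma-voom, and 4 in a fit of only the groups compared. For 10 µg against 1 µg at 24 h it was 5, with 2 in a fit of only the groups compared, and ranged from 2 to 5 without single libraries. Over all genes, 738 were called at 10 µg for 6 h against untreated cells, with 1487 in a fit of only the groups compared and 390 to 469 without single libraries. The count for 10 µg against 1 µg at 6 h was 291, with 1044 in a fit of only the groups compared and 111 to 163 without single libraries. At 1 µg for 6 h it was 0, and 1 with no filter. The cause of these moves was not tested, except that leaving out a library leaves fewer samples.

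Replicates 1 to 3 carry the same numbers in each group, but same-numbered libraries did not deviate together (correlations of -0.0814 to 0.0964 over 30 pairs, median 0.0168). Low correlations cannot settle whether the numbers pair the samples, since matched libraries need not deviate together. With the replicate block, 2 members were called at 10 µg for 6 h, without Gbp3 (adjusted p = 0.0532), and 4 for 10 µg against 1 µg at 24 h, without Irgm2 (0.0623); it changed no other call of a member. Gbp5 and Iigp1 have few reads, and their log2 fold changes against untreated cells at 24 h have SEs of 0.35 to 0.56. In a fit of only the groups compared, Iigp1 had too few counts to be tested at either dose at 24 h against untreated cells, at 10 µg for 24 h against 6 h, and, like Gbp5, between the doses at 24 h. Effects of vehicle and batch were not tested, since the labels name no vehicle and 1 batch.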

Other observations

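Among the GTPases and relatives listed, Gbp4, Tgtp1, Tgtp2 and Ifi47 had 0 counts in all 15 libraries. For 3 of them, a gene with shared exon bases on the same strand in GENCODE M21 did have counts: Olfr56 beside Ifi47 with 1868 to 2745 per library (111 shared bases), Gm12185 beside Tgtp1 with 987 to 2710 (223 shared bases) and Gbp8 beside Gbp4 with 11 to 488 (61 shared bases). These partners were looked at after their values were seen. Exosc6, the other gene with the count pattern of Gbp9, had 579 to 651 counts per library in untreated cells, 464 to 518 at 1 µg for 6 h, 553 to 602 at 10 µg for 6 h and 0 in all 6 libraries at 24 h.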
